A study of Mus musculus with 6 samples.

Results

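Canonical Wnt signaling was read here through 10 genes that sit at the end of the pathway, the 4 TCF/LEF transcription factors *Lef1*, *Tcf7*, *Tcf7l1* and *Tcf7l2* and 6 direct targets and feedback regulators, *Axin2*, *Nkd1*, *Nkd2*, *Rnf43*, *Znrf3* and *Sp5*. They were taken by name from the 55487 genes of the deposited table, and all 10 were found. The tissue was M1 dental epithelium (M1, mandibular first molar) from control mice and from mice with a conditional deletion of *Wnt10a*. None of the 9 genes that could be tested differed between the groups at an adjusted p below 0.05 (limma). The deleted gene *Wnt10a* did not pass that threshold either, with an adjusted p of 0.747 (limma), and 2 of all 13719 genes tested did. *Axin2*, a widely used reporter of the pathway, was 20.8 ± 4.12 TPM (SD, n = 3) in control and 15.5 ± 2.65 TPM (SD, n = 3) in cKO. TPM is a level per transcript length, scaled to a fixed total within one library.

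When a Wnt ligand binds its receptors, β-catenin escapes destruction, enters the nucleus and joins TCF/LEF factors on DNA, where target genes are switched on. Several targets encode inhibitors of the pathway, so that signaling limits itself, and their RNA levels are used as a readout of pathway activity. In the developing tooth the pathway acts in both the epithelium and the underlying mesenchyme, and *Lef1* is needed for tooth formation beyond the bud stage.

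The control libraries were from Wnt10aflox/flox mice and the cKO libraries from K14-Cre;Wnt10aflox/flox mice, so that the floxed alleles were present in both groups and the Cre transgene in cKO only. Cre recombinase was under the keratin 14 promoter, which is active in epithelia, so deletion in the mesenchyme was not part of the design. All libraries were from dental epithelium at PN2.5 (postnatal day 2.5), 3 per group, and each was a pool of molars, 4 by the text of the series, while the study's methods give a different number. Both describe the replicates as paired and neither tells what the members of a pair have in common, and p-values measure only the spread between these pools.

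The libraries summed to between 983952 and 993946 TPM, and their sequencing depth is unknown, so no counting error can be given. *Wnt10a*, which encodes the Wnt ligand that was targeted, ranged from 51.2 to 57.9 TPM over the control libraries and from 21.8 to 32.2 TPM over the cKO libraries, a value over the whole gene and not over the floxed exons alone. On the scale of log2(TPM + 1) the fold change of *Wnt10a*, cKO minus control, was -1.10, with an unadjusted p of 6.5e-04 and an adjusted p of 0.747 (limma). Of 7 epithelial markers none met the study's criteria (p below 0.05 before adjustment, with group means more than 20% apart relative to control), which 4.02% of all genes tested met. The thresholds are the study's, but the p-values are from limma here, so a gene that meets them need not be one that the study called. The enamel genes *Amelx* and *Ambn* had their lowest values in cKO replicate 2, and *Ambn* did not overlap between the groups. In that library *Amelx* took 8.65% of the TPM, against 16.5% to 20.6% in the other libraries. The mesenchymal markers summed to 3534 to 7027 TPM in control and 4523 to 5123 TPM in cKO, and all 10 were detected in the libraries labelled as epithelium. The T cell markers, listed because *Lef1* and *Tcf7* are classical T cell genes, summed to 3.22 to 7.50 TPM, with *Cd3d* at 0 throughout and *Cd3e* at or below 0.18 TPM. Most of that sum was *Cd3g*, at 1.82 to 6.27 TPM, and *Lck*, at 0.84 to 1.86 TPM. In bulk RNA, fewer cells of a type cannot be told apart from less RNA per cell.

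The regulatory sequence just upstream of 3 of the targets and feedback genes is shown. *Axin2* and *Sp5* were taken because their groups did not overlap, and *Nkd1* as the only one of these genes with a higher mean in cKO. The factor *Tcf7l2*, whose mean was also higher in cKO, is not shown. The sequences are the 250 bases before the RefSeq start site on GRCm38.p6, all on the forward strand, 5′ to 3′. Capitals mark the core of the TCF/LEF binding motif, searched on both strands as CTTTGAA, as the word CTTTGAT, as the word CTTTGTA and as the word CTTTGTT. The windows are chr11:108920099-108920348 for *Axin2*, chr8:88527383-88527632 for *Nkd1* and chr2:70474673-70474922 for *Sp5*. The *Nkd1* window lies inside the gene as GENCODE annotates it, since the RefSeq start is downstream of the GENCODE one.
Axin2: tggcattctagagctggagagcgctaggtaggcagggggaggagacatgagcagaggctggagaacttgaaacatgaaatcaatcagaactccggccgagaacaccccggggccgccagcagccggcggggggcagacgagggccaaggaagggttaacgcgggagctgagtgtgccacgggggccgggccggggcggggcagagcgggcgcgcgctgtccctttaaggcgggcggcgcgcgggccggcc
Nkd1: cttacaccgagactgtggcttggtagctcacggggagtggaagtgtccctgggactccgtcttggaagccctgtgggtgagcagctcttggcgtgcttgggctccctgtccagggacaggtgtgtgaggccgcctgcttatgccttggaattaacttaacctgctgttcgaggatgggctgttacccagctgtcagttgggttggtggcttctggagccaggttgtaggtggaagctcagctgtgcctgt
Sp5: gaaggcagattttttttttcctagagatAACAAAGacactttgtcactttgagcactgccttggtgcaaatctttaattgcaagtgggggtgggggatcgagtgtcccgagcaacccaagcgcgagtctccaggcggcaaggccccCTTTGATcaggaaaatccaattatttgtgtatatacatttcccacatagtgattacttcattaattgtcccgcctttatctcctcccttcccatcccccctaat

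The *Sp5* window held 2 cores, an AACAAAG (the reverse complement of CTTTGTT) whose first base lies 222 bases before the start site and a CTTTGAT that begins 104 bases before it, and the words do not overlap. The *Axin2* and *Nkd1* windows held 0. RefSeq windows of 300 bases, 250 before and 50 after a start site, were given for 9 of the 10 genes (all but *Znrf3*), 15 windows in all. A core was found in 3 of the 15, the *Sp5* window, the window of 1 of 4 start sites of *Lef1* (TACAAAG) and that of 1 of 2 start sites of *Tcf7l2* (CTTTGTT). Of all 32851 windows of that length, 16.9% held a core and 1.94% held 2 or more. These are matches of letters, not measured sites, and the search did not reach introns or distant enhancers.

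The 10 genes spanned a wide range of levels. In control, *Axin2* had the highest mean at the 65.2 percentile of the 13719 genes tested (those with a mean of at least 1 TPM), followed by *Tcf7l1*, *Tcf7*, *Rnf43*, *Tcf7l2*, *Nkd1*, *Znrf3*, *Nkd2*, *Lef1* and *Sp5*. The ranges over the control libraries of neighbours in this order overlapped, except between *Znrf3* and *Nkd2* and between *Lef1* and *Sp5*. Read within each library, *Tcf7l1* was above *Tcf7* in 3 of 3 control libraries, with a ratio of 1.19, 1.21 and 1.06, while each other pair of neighbours among the upper 6 changed places in at least 1 of them. By the cKO means, *Axin2* was again first and the last 4 kept their places, while *Nkd1* moved from rank 6 to rank 4 and *Rnf43* from rank 4 to rank 6. The first 3 means were close, at 15.5 TPM for *Axin2*, 15.2 TPM for *Tcf7* and 14.9 TPM for *Tcf7l1*. In cKO replicate 2, *Axin2* (12.6 TPM) was below *Tcf7*, *Tcf7l1*, *Tcf7l2* and *Nkd1*.

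**Figure D1:**
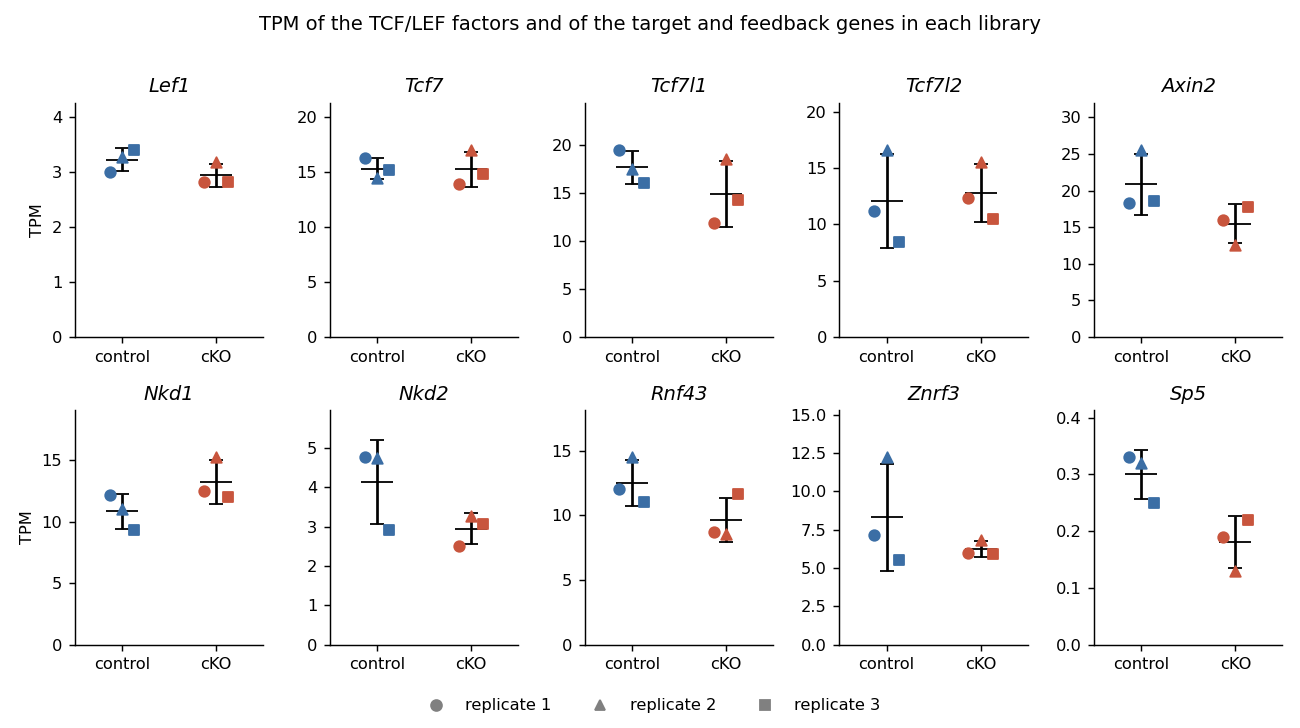
TPM (y axis, from 0, scaled per gene) of the 10 genes in the 3 control and 3 cKO libraries. Points are libraries, with the replicate number as the symbol, and bars are the mean and SD. The groups do not overlap for *Axin2* and *Sp5* and overlap for the other 8 genes.

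The TCF/LEF factors are the DNA-binding partners of β-catenin. *Tcf7* and *Lef1* mostly activate, *Tcf7l1* mostly represses, and *Tcf7l2* can do either. *Lef1* (chromosome 3, 131110471 to 131224356, GRCm38) was the lowest of the 4, at 3.01, 3.27 and 3.41 TPM in the control libraries against 2.83, 3.19 and 2.82 TPM in the cKO libraries. Each cKO value of *Lef1* was below the control value of the same number, but the groups overlapped. The log2 fold change of *Lef1*, cKO minus control on the scale of log2(TPM + 1), was -0.10 with a 95% interval from -0.58 to 0.38 (limma).

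*Tcf7* (chromosome 11, 52252371 to 52283014) was 16.3, 14.5 and 15.1 TPM in the control libraries against 13.9, 17.0 and 14.8 TPM in the cKO libraries. The means of 15.3 and 15.2 TPM were closer than for any other of the 10 genes, and the cKO values lay on both sides of the control range. Its log2 fold change was -0.01 with a 95% interval from -0.40 to 0.39 (limma), the narrowest interval of the 9 genes tested. Its sign was positive under 7 of 17 other settings, with a value of at most 0.09.

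*Tcf7l1* (chromosome 6, 72626378 to 72789254) was 19.5, 17.5 and 16.0 TPM in the control libraries against 11.9, 18.6 and 14.3 TPM in the cKO libraries. cKO replicates 1 and 3 were below every control library, and cKO replicate 2 was within the control range. The fitted difference was -0.25 on the log2 scale with a 95% interval from -0.74 to 0.24 and an unadjusted p of 0.271 (limma). Without cKO replicate 1 it was -0.11, and without cKO replicate 2 it was -0.41.

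*Tcf7l2* (chromosome 19, 55741820 to 55933654) was the most variable factor in control, at 11.2, 16.6 and 8.40 TPM in the control libraries against 12.3, 15.6 and 10.5 TPM in the cKO libraries. Replicate 2 was the highest and replicate 3 the lowest in both groups. For *Tcf7l2* the log2 fold change was 0.11 with a 95% interval from -0.54 to 0.76 (limma), and it was -0.11 without control replicate 3 and 0.35 without control replicate 2.

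Summed, the 4 factors came to 48.3 ± 4.69 TPM (SD, n = 3) in control and 45.9 ± 7.37 TPM (SD, n = 3) in cKO. The shares of the factors within that sum do not depend on the scaling of a library, but they are not corrected for transcript length or GC content. *Tcf7l1* made up 39.0%, 33.7% and 37.3% of it in control and 29.0%, 34.1% and 33.6% in cKO. Its share was lower in cKO in replicates 1 and 3 and slightly higher in replicate 2, and the groups overlapped. *Tcf7* made up 27.9% to 35.2%, *Tcf7l2* 19.6% to 32.1% and *Lef1* 5.87% to 7.94% over the 6 libraries, each with overlap between the groups. By the means, *Tcf7l1* held the largest share in control (36.6%) and *Tcf7* in cKO (33.4%), within overlapping ranges, and *Lef1* was the smallest part in every library.

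**Figure D2:**
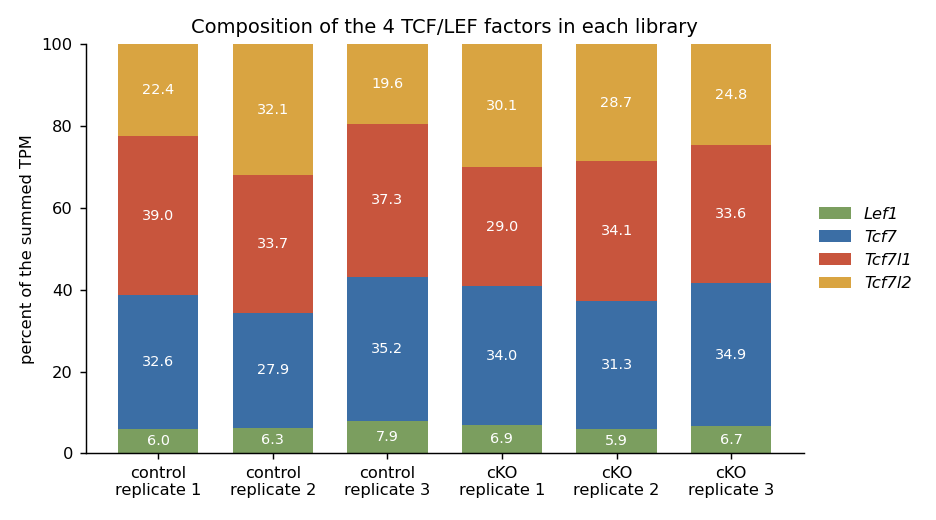
Share of each TCF/LEF factor in the summed TPM of the 4 factors (y axis, percent) in each of the 6 libraries. *Tcf7l1* takes between 29.0% and 39.0%, and *Lef1* stays between 5.87% and 7.94%.

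The 6 targets and feedback genes act at several levels of the pathway. *Axin2*, on chromosome 11 of GRCm38 from 108920349 to 108950783, encodes a scaffold of the complex that marks β-catenin for destruction. It was 18.3, 25.6 and 18.6 TPM in the control libraries against 16.0, 12.6 and 17.8 TPM in the cKO libraries. The highest cKO value (17.8 TPM) lay just under the lowest control value (18.3 TPM), and replicate 2 held both the highest control and the lowest cKO value.

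On average *Axin2* in cKO was at 74.2% of control, with p = 0.1 in an exact permutation test, two-sided, which cannot go lower with 3 against 3 libraries. On the log2 scale the difference was -0.40 (standard error 0.21) with a 95% interval from -0.91 to 0.10. Its unadjusted p was 0.0985 and its adjusted p 1.00 over all genes tested (limma, Benjamini-Hochberg). Of the genes tested, 9.64% had no overlap between the groups and 6.13% had none with cKO lower, and *Axin2* was 1 of the 9 tested here. The groups of *Axin2* overlapped with quantile normalization (-0.32) and with median-ratio scaling (-0.34), where *Nkd1* was the gene of the 9 without overlap, higher in cKO. For those settings the share of all genes without overlap is not given. Without control replicate 2 the log2 fold change was -0.25, and without cKO replicate 2 it was -0.27.

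*Rnf43* and *Znrf3* encode membrane ubiquitin ligases that remove Frizzled receptors from the cell surface. *Rnf43* (chromosome 11, 87662722 to 87735539) was 12.0, 14.5 and 11.04 TPM in the control libraries against 8.71, 8.57 and 11.6 TPM in the cKO libraries. cKO replicates 1 and 2 were below every control library, while cKO replicate 3 was above the lowest control library. For *Rnf43* the log2 fold change was -0.35 with a 95% interval from -0.83 to 0.13 and an unadjusted p of 0.128 (limma).

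*Znrf3* (chromosome 11, 5276324 to 5444847) was 7.14, 12.2 and 5.55 TPM in the control libraries against 5.96, 6.84 and 5.90 TPM in the cKO libraries. All cKO values lay within the control range, and control replicate 2 stood above the other 5 libraries. The log2 fold change of *Znrf3* was -0.30 with a 95% interval from -0.97 to 0.37 (limma), and it was -0.02 without control replicate 2.

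*Nkd1* and *Nkd2* encode the Naked cuticle proteins, which bind Dishevelled and dampen the signal. *Nkd1* (chromosome 8, 88521354 to 88594884) was 12.2, 11.1 and 9.32 TPM in the control libraries against 12.5, 15.3 and 12.0 TPM in the cKO libraries. It was the only target or feedback gene with a higher mean in cKO, at 122% of control, and the groups overlapped, since cKO replicate 3 was below control replicate 1. The log2 fold change of *Nkd1* was 0.27 with a 95% interval from -0.18 to 0.72 and an unadjusted p of 0.206 (limma).

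*Nkd2* (chromosome 13, 73818534 to 73847631) was 4.77, 4.76 and 2.91 TPM in the control libraries against 2.52, 3.28 and 3.06 TPM in the cKO libraries. Control replicates 1 and 2 stood above all cKO libraries, and control replicate 3 was within the cKO range. For *Nkd2* the log2 fold change was -0.36 with a 95% interval from -0.95 to 0.22 and an unadjusted p of 0.188 (limma).

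The means of the 2 Naked genes went in opposite directions in cKO. The ratio of *Nkd1* to *Nkd2* TPM within a library was 2.55, 2.32 and 3.20 in control and 4.96, 4.65 and 3.92 in cKO, without overlap. The ratio of *Axin2* to *Nkd1* was 1.51, 2.32 and 2.00 in control and 1.28, 0.82 and 1.49 in cKO, also without overlap, with 1.49 and 1.51 as the nearest values. These 2 ratios were the only ones without overlap among 8 that were computed after the values had been seen, so no test is given for them.

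*Sp5* (chromosome 2, 70474923 to 70477729) encodes a zinc finger factor that competes for the promoters of other Wnt targets. *Sp5* was barely detected, with 0.33, 0.32 and 0.25 TPM in the control libraries against 0.19, 0.13 and 0.22 TPM in the cKO libraries. The groups did not overlap and cKO averaged 60.0% of control, but all values were below the filter of 1 TPM and the gene was not tested. Without the filter its log2 fold change was -0.14 with a 95% interval from -0.30 to 0.02 and an unadjusted p of 0.0751 (limma), on a scale that understates the change of a gene this low.

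Over the 9 tested genes, 7 had a negative and 2 a positive log2 fold change, with a median of -0.25. Over all 13719 genes tested, 60.3% were negative and the median was -0.07. With an adjusted p below 0.05, 0 of the 9 genes were called, against 0.0146% of all genes tested (limma). Under the study's criteria, 0 of the 9 were called as well, and 0 had an unadjusted p below 0.05 (limma). *Wnt10a*, which missed the adjusted threshold with 0.747 (limma), met these criteria. The background of those criteria was 4.02% of all genes tested, and 2.47% with cKO lower. All 9 intervals span 0, and they reach as far as -0.97 for *Znrf3* and 0.76 for *Tcf7l2*, so that sizeable differences in either direction lay within them.

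**Figure D3:**
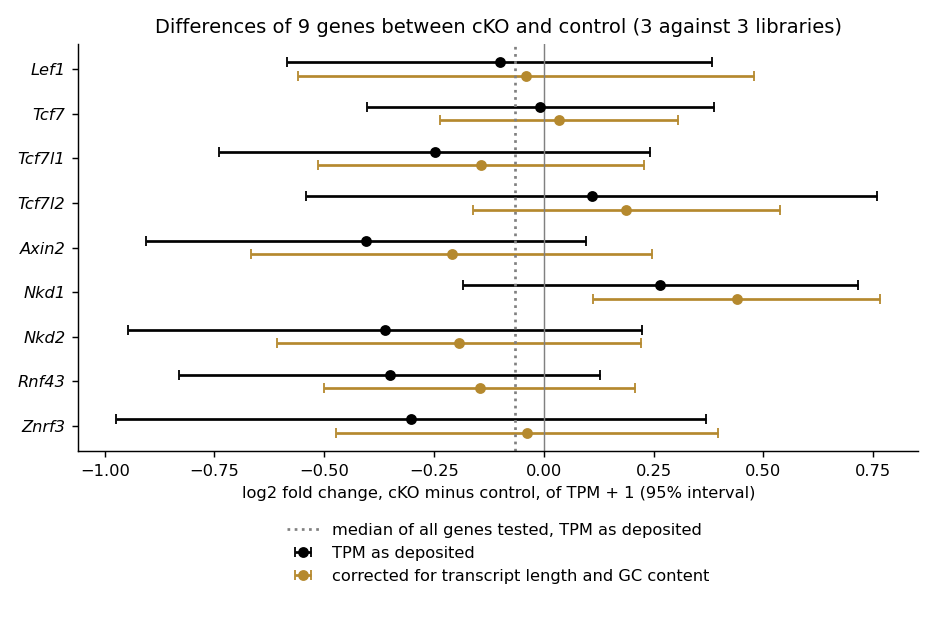
Log2 fold change of 9 genes, cKO minus control, on the scale of log2(TPM + 1) (x axis) with 95% intervals from limma, as deposited (black) and corrected for length and GC content (ochre). All black intervals span 0, and after the correction the interval of *Nkd1*, from 0.11 to 0.77, does not. The dotted line is the median of all genes tested, -0.07.

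The difference between the groups moved with the length of the transcript. Over 12188 protein-coding genes, not independent of each other, Spearman's rho between length and log2 fold change was -0.48, longer transcripts being lower in cKO. The longest annotated transcripts of the 9 tested genes have between 2471 bases (*Tcf7*) and 6311 bases (*Znrf3*). With a correction of every library for length and GC content, the value of *Axin2* was -0.21, of *Rnf43* -0.15, of *Nkd2* -0.19 and of *Znrf3* -0.04. That of *Nkd1* was 0.44 with a 95% interval from 0.11 to 0.77 and an unadjusted p of 0.0156 (limma). The corrected *Nkd1* met the study's criteria, the only one of the 9 genes to do so under that setting, with an adjusted p of 0.999 over all genes (limma). Under the same setting 619 of all 13707 genes met them. The median of the 9 genes moved from -0.25 to -0.04. The corrected groups of *Axin2* overlapped, and those of *Nkd1* did not.

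Correlations between these genes across the 6 libraries are given without the same values over all pairs of genes, so they have no background. Pearson's r in log2(TPM + 1) was 0.92 for *Axin2* and *Rnf43*, 0.66 for *Axin2* and *Znrf3*, and -0.69 for *Axin2* and *Nkd1*. With *Axin2* it was 0.56 for *Nkd2*, 0.25 for *Lef1*, 0.09 for *Tcf7l1*, 0.04 for *Tcf7l2* and -0.52 for *Tcf7*. Over the 36 pairs of the 9 tested genes the median r was 0.29, and 6 pairs were above 0.7. These values describe 6 libraries, and they include the difference between the groups and whatever the libraries share. The 3 tested genes with the highest r to *Axin2* were *Mab21l3* (0.99), *Xdh* (0.99), which encodes xanthine dehydrogenase, and *Adgrb1* (0.98), an adhesion G protein-coupled receptor, among 13719 genes compared over 6 libraries.

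The other genes of the canonical pathway were described from 3 lists. Over all genes tested, 60.3% were negative, the median was -0.07, 4.02% met the study's criteria and 9.64% had no overlap. The counts and medians of the lists are not corrected for length, and longer transcripts were lower in cKO. The core machinery, which controls the stability of β-catenin, had 21 of 22 genes tested. Of these 0 met the study's criteria, 16 (76.2%) were negative and the median log2 fold change was -0.21. The 2 without overlap were *Amer1*, a scaffold for APC, at -0.41, and *Ctnnbip1*, an inhibitor that binds β-catenin, at 0.14. *Ctnnb1*, which encodes β-catenin itself, was far above the 10 genes, at 1100, 1164 and 830 TPM in the control libraries against 1128, 1350 and 991 TPM in the cKO libraries. Its groups overlapped and its log2 fold change was 0.17 with a 95% interval from -0.28 to 0.62 (limma). With the correction for length and GC content *Ctnnb1* was at 0.28 without overlap, with an unadjusted p of 0.102, and adding the replicate number as a block gave 0.0377 and met the criteria (limma, adjusted p 0.582). With correction and block, 1110 of all 13707 genes met them. The share of all genes without overlap after the correction is not given.

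The nuclear cofactors of β-catenin and the TCF/LEF factors had all 16 genes tested. Of these 14 (87.5%) were negative, against 60.3% of all genes tested, with a median of -0.27 that is not corrected for length. The criteria were met by 4.02% of all genes tested and by 1 gene of this list. This was *Bcl9l*, which links β-catenin to Pygopus, at 22.8, 27.8 and 21.3 TPM in the control libraries against 9.12, 13.6 and 19.6 TPM in the cKO libraries. The groups did not overlap, with cKO replicate 3 close to the control range, and the log2 fold change was -0.78 with an unadjusted p of 0.0263 and an adjusted p of 1.00 (limma). Its unadjusted p was between 0.0566 and 0.0779 (limma) without control replicate 1, control replicate 2, cKO replicate 1 or cKO replicate 2, at log2 fold changes from -0.81 to -0.52. Corrected for length and GC content, *Bcl9l* was at -0.46 with an unadjusted p of 0.0492 (limma), and its groups overlapped, as they did with quantile normalization and median-ratio scaling. The other gene of this list without overlap was *Smarca4*, the ATPase of a chromatin remodelling complex, with a log2 fold change of -0.41. The corepressor gene *Tle5*, the highest of this list in control, had means of 218 TPM in control and 228 TPM in cKO.

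Of 16 further genes reported as targets of the pathway, 12 were tested. Of these 7 (58.3%) were negative, against 60.3% of all genes tested, the median was -0.04, and 1 met the criteria. This was *Apcdd1*, which encodes a membrane-bound inhibitor of Wnt ligands, at 55.2, 48.4 and 45.0 TPM in the control libraries against 24.5, 19.2 and 44.9 TPM in the cKO libraries. cKO replicates 1 and 2 were far below the control range and cKO replicate 3 (44.92 TPM) was at its lower edge (44.99 TPM). For *Apcdd1* the difference on the log2 scale was -0.81, with an unadjusted p of 0.0307 and an adjusted p of 1.00 (limma), and the call was lost after the correction for length and GC content, at -0.48 with an unadjusted p of 0.258 (limma). It was also lost without control replicate 1, control replicate 2, cKO replicate 1 or cKO replicate 2, at log2 fold changes from -0.82 to -0.56 and unadjusted p between 0.0557 and 0.0969 (limma). *Dkk4*, *Lgr5*, *Fgf20* and *Sp8* were below 1 TPM on average and were not tested.

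**Figure D4:**
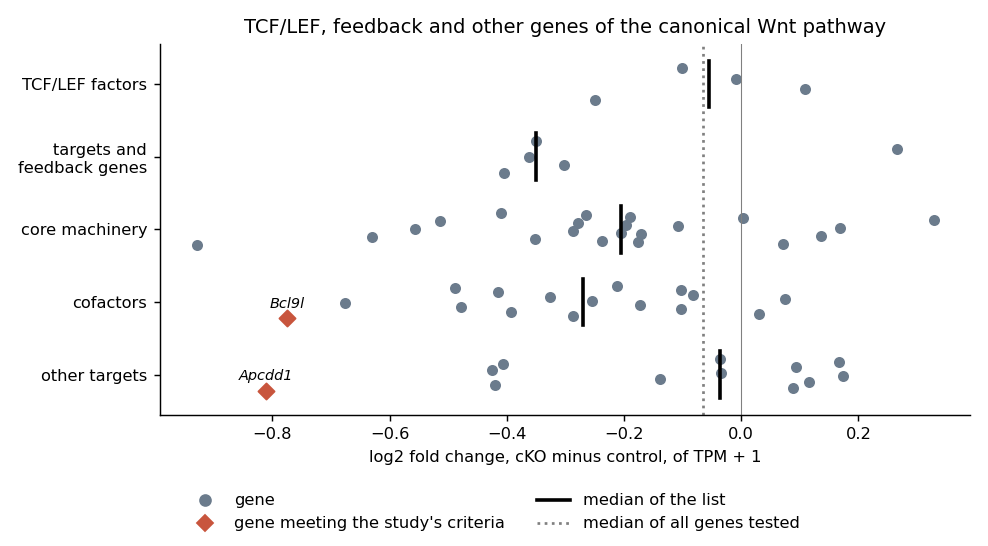
Log2 fold change of each tested gene, cKO minus control, on the scale of log2(TPM + 1) (x axis), for the TCF/LEF factors, the targets and feedback genes and 3 further lists of the canonical Wnt pathway. The values are not corrected for length. Bars are list medians, from -0.35 for the targets and feedback genes to -0.04 for the other targets, the dotted line is the median of all genes tested (-0.07), and diamonds are the 2 genes that met the study's criteria, *Bcl9l* and *Apcdd1*.

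Several of the 10 genes are known to be expressed outside the epithelium, so the markers of other cells are given beside them. The endothelial markers summed to 76.2, 44.1 and 65.0 TPM in the control libraries against 32.1, 35.4 and 51.7 TPM in the cKO libraries, with lower means in cKO for all 4 and 2 of the 4 meeting the study's criteria. Of the mesenchymal markers 0 of 10 met them, of the leukocyte markers 0 of the 3 that could be tested and of the T cell markers 0 of 2, and the skeletal muscle markers summed to at most 1.05 TPM. Over all genes tested 4.02% met the criteria, so in lists this short a count of 0 is common. The part of these cells in the levels of the 10 genes was not tested.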

How the data were processed

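RNA was sequenced from dental epithelium of the mandibular first molar at PN2.5 in 3 control and 3 cKO libraries. The authors used SeqPrep and Sickle for trimming, HISAT2 for alignment and RSEM for quantification. The submitters' processing notes also name StringTie, and versions, genome build and annotation are not given in the sources used here. The authors deposited TPM for each gene. The methods name FPKM, but each library sums to between 983952 and 993946, as TPM nearly do. Groups and replicate numbers came from the sample titles.

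From the deposited TPM, log2(TPM + 1) was fitted with limma 3.58.1 (R 4.3.3; lmFit and eBayes with a mean-variance trend, no block) over the 13719 genes averaging 1 TPM or more, and p-values were adjusted by Benjamini-Hochberg over all of them. Single values were compared by exact two-sided permutation of libraries (SciPy 1.17.1). The code was tested on simulated data. The 10 genes and all gene lists were chosen with earlier results of these data known. All 10 genes are named, and from the other lists those meeting the study's criteria and the gene with the highest control mean, *Wnt10a*, and the 3 genes most like *Axin2*. One gene that this rule names is not reported here. The 4 untested targets, *Amer1*, *Ctnnbip1*, *Smarca4*, single marker genes and the ratios were chosen after their values were seen. *Aes* was matched as *Tle5* by gene ID. Of the gene IDs, 99.5% were in GENCODE vM21 (GRCm38), the source of gene positions, transcript lengths and GC content. Promoter sequences are from RefSeq (GRCm38.p6).

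The alternatives were a pseudocount of 0.1, no filter, a filter at 5 TPM, quantile normalization, median-ratio scaling, protein-coding rescaling (leaving out *Amelx* and *Ambn*), correction for transcript length and GC content (natural splines, 4 degrees of freedom each, 13707 genes), the replicate number as a block with and without that correction, no mean-variance trend, Student's test on the TPM, and leaving out each library in turn. TPM keep no depth, so the part of counting error in the spread between libraries is unknown.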

Additional observations from a re-analysis of the deposited data

How the results depend on the processing

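Under 17 other settings, *Axin2*, *Rnf43*, *Znrf3* and *Tcf7l1* kept a negative and *Nkd1* a positive log2 fold change, as did *Lef1* and *Nkd2* (negative) in the 16 that tested them, and 0 of these 7 genes had an adjusted p below 0.05 in any (limma, or Student's test on the TPM). *Axin2* ranged from -0.51 (without cKO replicate 3) to -0.21 (correction for length and GC content). The count of the 9 genes meeting the study's criteria was 0, and 1 (*Nkd1*, 0.44) with the correction for length and GC content, without and with the replicate block. Of all 13707 genes, 619 met them with the correction without the block and 1110 with it. The count without overlap was 1 (*Axin2*), 1 other gene (*Nkd1*, with *Axin2* overlapping) under quantile normalization and median-ratio scaling, and 2 (*Axin2* and *Lef1*) after protein-coding rescaling that left out *Amelx* and *Ambn*. It ranged from 1 to 4 when one library was left out, where fewer libraries make separation easier. The share of all genes without overlap is given only for the TPM as deposited with all libraries. The counts under other settings therefore cannot be read against a background. *Tcf7* turned positive with quantile normalization (0.0931), median-ratio scaling (0.0545) and the length and GC correction without and with the replicate block (0.0339), and it ranged from -0.0858 to 0.0513 without one library. *Tcf7l2* ranged from -0.11 to 0.35 without one library. *Ctnnb1* was -0.00652 and *Tle5* -0.00265 with quantile normalization, and *Ctnnb1* was 0.28 and met the study's criteria with the replicate block plus the length and GC correction. Without one library, *Tle5* ranged from -0.0778 to 0.187. *Bcl9l* kept an unadjusted p below 0.05 in 12 and *Apcdd1* in 9 of 17 settings.

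The same replicate numbers stand in both groups, and the samples are called pairs, but no source says what a pair shares. Libraries of the same number deviated from their group means with correlations of -0.08, 0.29 and 0.40 across genes. For libraries of unlike numbers the correlations ran from -0.40 to 0.18. Whether the numbers pair the libraries was not settled, so the main fit has no block and the fit with a block is given beside it. With the replicate block the log2 fold change of *Axin2* was -0.40 with an unadjusted p of 0.0951 (limma). Over all genes, the count with an adjusted p below 0.05 was 2, and it was 4 with a pseudocount of 0.1, quantile normalization or the replicate block, 1 without the filter or with block plus correction, and 0 after the protein-coding rescaling (755 genes at an unadjusted p below 0.05, limma) and with Student's test on the TPM (544 genes). It ranged from 2 to 9 without one library. The count meeting the study's criteria was 552, 940 without the filter, 1315 with the replicate block, 1110 when the correction was added to it, and 195 to 1152 without one library. The share of these genes with cKO higher was 38.6%, against 13.8% after the protein-coding rescaling, 49.9% with quantile normalization and 54.0% with the correction. The cause of these differences was not tested.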
